A study of Mus musculus with 12 samples.

Results

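The genes described here encode the TGF-beta, activin, BMP and Smad pathway and were measured in mouse mammary tumors labelled null for the adaptor protein ShcA. Members were the non-control probes whose deposited gene name began with Tgfb1 to Tgfb3, Tgfbr, Bmp, Bmpr, Smad, Inha, Inhb, Acvr or Ltbp, or was Fst, Nog or Grem1. These names covered 79 probes and 47 genes, and each gene was represented by its brightest probe. 40 of the 47 genes were bright enough to test, among 20395 genes tested in all. The other 7 were Bmp8b, Bmp10, Bmp15, Grem1, Inhbc, Nog and Smad9.

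Ligands of this superfamily are dimers that bring together type I and type II serine/threonine kinase receptors. The type II receptor phosphorylates the type I receptor, which phosphorylates receptor-regulated Smads, and these enter the nucleus with Smad4 to control transcription. TGF-beta and activin act mainly through Smad2 and Smad3, and BMPs act mainly through Smad1, Smad5 and Smad9. TGF-beta is secreted in a latent form bound to latent TGF-beta binding proteins in the matrix. In mammary epithelium it is known both for holding back growth and, in ErbB2-driven tumors, for promoting spread, and ShcA is itself a substrate of the TGF-beta receptor kinase.

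RNA of 8 tumors labelled SHC null was hybridised on 2-colour arrays against a pool labelled Pooled NIC tumor, which the series text names MMPV-NIC. NIC mice carry activated Neu (ErbB2) and Cre recombinase on 1 transcript driven by a mammary epithelial promoter, so both the null tumors and the pool are ErbB2-driven, and cells that do not express Cre keep ShcA. Tumors 1 to 8 each had a first array with the tumor in Cy5 and the pool in Cy3, and tumors 1 to 4 also had a swapped array with the dyes exchanged, giving 12 arrays on 3 slides. The age, strain and treatment of the mice, the number of tumors in the pool and whether the 8 tumors came from separate mice are not given in the sources used here. Each p-value therefore covers the spread among these 8 samples and nothing wider. The pool is 1 control sample, so each test asks whether the 8 tumors differed from that pool and leaves out the spread between control tumors.

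Several facts of the series bear on the values that follow. Over all genes tested, the swapped array labelled tumor 1 correlated best with the first array of tumor 1 (r = 0.377), but those labelled 2, 3 and 4 correlated best with the first arrays of tumors 3, 4 and 8 (r = 0.824, 0.343 and 0.669, against 0.147, 0.136 and 0.257 with their own number). With dye as a term, the correlation within pairs over all genes was -0.038 for arrays paired by label. It was 0.926 for the best-matching pairs, which were chosen on these same data. Whether the labels of the swapped arrays are right was not tested. A value given for tumor 1, 2, 3 or 4 is the mean of both arrays that carry its label, and the arrays themselves are given beside it for the called members and the 5 members of widest SD. The 8-tumor limma and sign-flip p-values treat these label means as independent samples, which holds only if the labels are right. The 4 swapped arrays form slide 3, so dye orientation and slide cannot be told apart. Log2 ratios spread more in tumors 6 and 7 (SD 1.23 and 1.02 over all genes) than in the others (SD 0.53 to 0.77). The Shc1 probe gave 0.12 ± 0.65 (log2, SD, n = 8; range -1.13 to 0.71), and whether it lies in the deleted part of the gene was not determined. Of 11 luminal epithelial markers all passed the brightness filter and 2 were called higher (Krt8 and Epcam) and 1 lower. Of 7 milk genes 6 were higher (median log2 ratio of the list 2.84). With dye as a term in the fit these counts were 1, 0 and 5. The 1 luminal marker then called was neither Krt8 nor Epcam (adjusted p = 0.471 and 0.666 with the dye term, limma). In bulk tumor RNA, fewer cells of a type and less RNA per cell cannot be told apart.

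In the loess-normalized ratios, the pathway genes as a group lay close to the pool. 3 of the 40 members tested were called different from the pool at an adjusted p under 0.05, Tgfbr2 and Ltbp1 higher and Ltbp3 lower (limma with Benjamini-Hochberg adjustment over all genes). That is 7.5%, beside 17.2% of all genes tested, with 6.58% of all genes called higher and 10.6% called lower. The median log2 ratio of tumor over pool was -0.08 over the members and -0.02 over all genes, and 19 of 40 members had a mean above the pool. Members spread more between tumors than genes in general, with a median SD of 0.60 against 0.46. Among the 36 members measured in all 8 tumors, 2 (Ltbp3 and Tgfbr2) had the same sign in every tumor, beside 15.5% of all such genes.

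**Figure D1:**
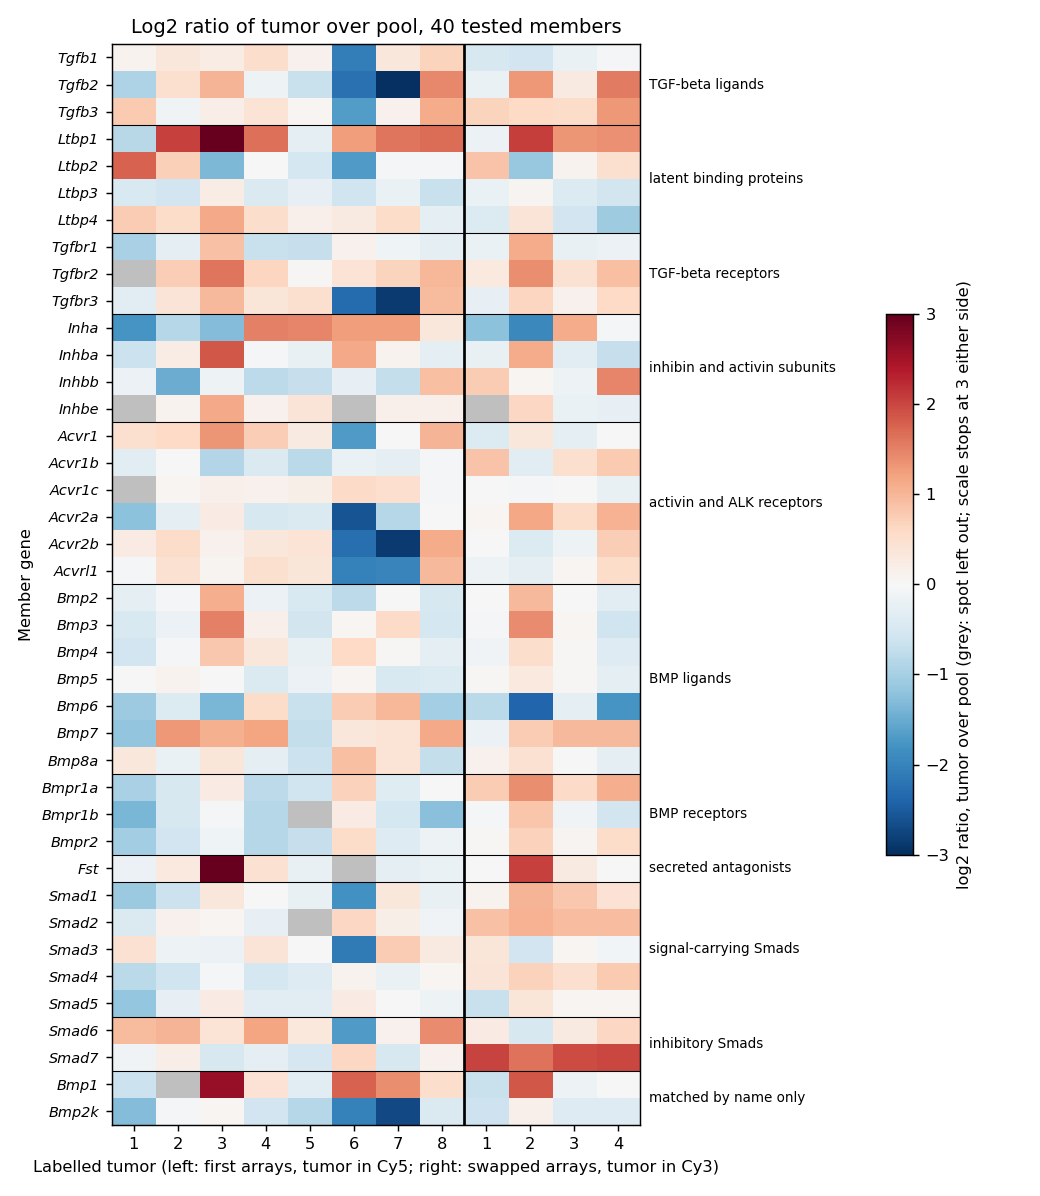
Log2 ratio of tumor over pool for the 40 tested members (rows, grouped by role) on the 8 first arrays and the 4 swapped arrays (columns, by labelled tumor); red is above the pool, blue below, grey a spot left out, and the colour scale stops at 3 on either side. The 3 TGF-beta ligands, Tgfbr3, Acvr2b and Acvrl1 are below -1.5 on the first array of tumor 6, and Smad7 lies between 1.63 and 2.02 on the swapped arrays.

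A second fit used all 12 arrays with a term for dye and kept each swapped array in a block with the first array it correlated best with. It called 3 of the 40 members, all higher: Tgfbr2, Smad7 and Smad2, beside 8.04% of all genes (3.53% higher and 4.52% lower). Tgfbr2 was the 1 member called by both fits. Without tumors 6 and 7, an alternative added after seeing the data, 7 of 40 members were called, beside 24.7% of all genes: Tgfbr2, Tgfb3, Smad6 and Acvr1 with means above the pool and Ltbp3, Bmp2k and Bmp6 with means below it. With each array centred on its median in place of loess, which moved the median of all genes to 0.16, 5 members were called, all higher (Ltbp1, Tgfbr2, Tgfb3, Smad2 and Smad7), beside 16.4% of all genes, 11.6% higher and 4.74% lower. Most of the 40 members then had a mean above the pool, so where the group lay relative to the pool depended on the normalization.

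Tgfbr2, the type II receptor that binds TGF-beta and starts the signal, was higher than the pool in all 8 tumors. Its log2 ratios in tumors 1 to 8 were 0.29, 1.06, 1.03, 0.78, 0.03, 0.42, 0.67 and 1.00. Tumors 2, 3 and 8 were highest and tumor 5 was level with the pool, and the value of tumor 1 came from its swapped array alone because the spot on its first array was an outlier. The mean was 0.66 ± 0.38 (SD, n = 8), 1.58-fold above the pool, with an adjusted p of 0.0119 (limma) and an exact two-sided sign-flip permutation p of 0.00781, the smallest that 8 tumors allow. The first arrays gave 0.73 on average, with those of tumors 2 to 4 at 0.73, 1.61 and 0.65. The swapped arrays gave 0.76 on average, with those labelled 1 to 4 at 0.29, 1.40, 0.45 and 0.91, so both orientations were above the pool. The fit with the dye term gave 0.62 (adjusted p = 0.0311, limma). Tgfbr2 was past the threshold in 20 of 23 other settings, and the 3 in which it was not were the single slides, each of at most 4 arrays. A second, dimmer Tgfbr2 probe, designed to another transcript, gave 0.45 ± 0.76 (SD, n = 8; adjusted p = 0.239 over all probes, limma), with tumors 6 and 7 at -0.74 and -0.57 and the other 6 between 0.38 and 1.40.

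Ltbp1, a matrix protein that holds the latent TGF-beta complex until it is released, had the largest mean ratio of the 40 members. Its log2 ratios in tumors 1 to 8 were -0.51, 2.07, 2.19, 1.52, -0.26, 1.26, 1.60 and 1.67. The tumors fell into 6 that were above the pool by 1.26 or more and 2, tumors 1 and 5, that were below it. The mean was 1.19 ± 1.02 (SD, n = 8), 2.29-fold above the pool (adjusted p = 0.0308, limma; exact sign-flip permutation p = 0.0312). The first arrays of tumors 1 to 4 gave -0.84, 2.05, 3.06 and 1.66 and the swapped arrays of those labels -0.17, 2.08, 1.32 and 1.38, so the arrays labelled tumor 1 were below the pool in both orientations and the rest above it. With the dye term the mean was 1.16 but the adjusted p was 0.102 (limma), and 12 of 23 other settings called it. Leaving out tumor 2, 3, 4, 7 or 8 ended the call at means of 1.05 to 1.15 (adjusted p = 0.0705 to 0.0774, limma), as did leaving out tumors 6 and 7 together (1.11, adjusted p = 0.077, limma). A second Ltbp1 probe was dim, with the pool above background on 2 of 12 arrays, and gave 0.13 ± 0.11 (SD, n = 8; adjusted p = 0.319 over all probes, limma).

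Ltbp3, another latent TGF-beta binding protein, was slightly lower in all 8 tumors by the mean of the arrays that carry each label. Its log2 ratios in tumors 1 to 8 were -0.33, -0.25, -0.09, -0.49, -0.24, -0.60, -0.20 and -0.67, a narrow range with no tumor above the pool. The first arrays of tumors 1 to 4 gave -0.46, -0.58, 0.22 and -0.43. The swapped arrays of those labels gave -0.19, 0.08, -0.40 and -0.55. The 2 of 12 arrays above the pool were the first of tumor 3 and the swapped one labelled tumor 2. These 2 correlate with each other at r = 0.824 over all genes, and each was averaged with an array below the pool. The mean was -0.36 ± 0.21 (SD, n = 8), 1.28-fold below the pool (adjusted p = 0.031, limma; exact sign-flip permutation p = 0.00781). This call held in 11 of 23 other settings, and leaving out tumor 1, 2, 4, 5 or 8 ended it at means of -0.38 to -0.31 (adjusted p = 0.0507 to 0.0881, limma). It was -0.33 (adjusted p = 0.127, limma) when dye was modelled. With median centring the mean turned to 0.29 (adjusted p = 0.302, limma). A second Ltbp3 probe was also below the pool on average, at -0.80 ± 0.79 (SD, n = 7; adjusted p = 0.0794 over all probes, limma).

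**Figure D2:**
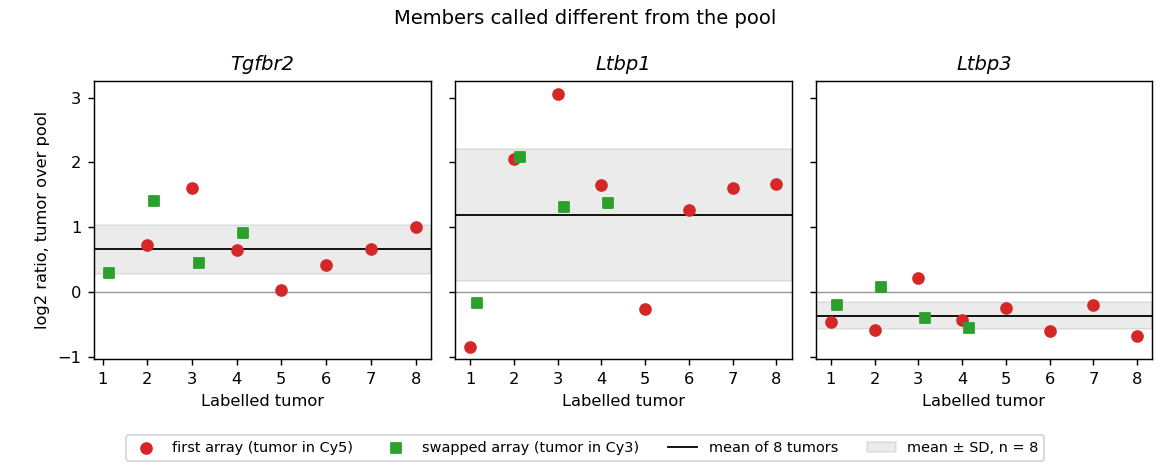
Log2 ratio of tumor over pool of Tgfbr2, Ltbp1 and Ltbp3 by labelled tumor: circles are first arrays with the tumor in Cy5, squares swapped arrays with the tumor in Cy3, the line is the mean of 8 tumors and the band its SD. Tgfbr2 lies at or above the pool on every array measured, Ltbp1 lies below it in tumors 1 and 5, and Ltbp3 stays within 0.7 of the pool.

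The array's annotation places the Tgfbr2 probe at chr9:115760364-115760423, the Ltbp1 probe at chr17:73681221-73681354 and the Ltbp3 probe at chr19:5653092-5653152, all in mm7 coordinates; exon and UTR boundaries of that build were not used here. Because Tgfbr2 and Ltbp1 were the members called higher, the 250 bases before their annotated starts are shown from RefSeq (GRCm38.p6), 5' to 3' on the gene's strand. Ltbp1 has 2 annotated starts. Capitals mark matches, on either strand, to the 3 motifs found among 6 searched. These are the Smad box with the letters CAGAC, the CCAAT box, and the cyclic AMP response element with the letters TGACGTCA.
Tgfbr2, chr9:116175364-116175613, minus strand: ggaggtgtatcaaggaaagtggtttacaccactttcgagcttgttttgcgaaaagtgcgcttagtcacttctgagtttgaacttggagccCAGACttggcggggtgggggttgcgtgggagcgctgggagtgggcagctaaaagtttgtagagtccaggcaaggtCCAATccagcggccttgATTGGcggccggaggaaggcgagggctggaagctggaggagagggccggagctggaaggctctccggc
Ltbp1, chr17:75005279-75005528, plus strand: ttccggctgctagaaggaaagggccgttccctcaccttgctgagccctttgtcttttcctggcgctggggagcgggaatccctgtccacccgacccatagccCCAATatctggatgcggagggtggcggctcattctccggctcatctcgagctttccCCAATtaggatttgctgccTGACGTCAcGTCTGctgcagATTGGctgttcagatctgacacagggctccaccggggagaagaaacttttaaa
Ltbp1, chr17:75178531-75178780, plus strand: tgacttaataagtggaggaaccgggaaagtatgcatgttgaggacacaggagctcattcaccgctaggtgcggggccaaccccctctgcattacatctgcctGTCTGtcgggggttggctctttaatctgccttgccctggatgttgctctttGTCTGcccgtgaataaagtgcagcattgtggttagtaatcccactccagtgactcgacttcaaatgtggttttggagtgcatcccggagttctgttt
The Tgfbr2 window holds 1 Smad box and 2 CCAAT boxes. The first Ltbp1 window holds 1 Smad box, 3 CCAAT boxes and 1 cyclic AMP response element, and the second holds 2 Smad boxes and none of the others. The Smad box letters occur in 42.2% of the 32851 promoter windows of this length, the CCAAT box in 33.8% and the response element in 1.55%. The GC box with the letters GGGCGG (32.7% of windows), the AP-1 site with TGAGTCA (4.46%) and the E-box with CACCTG (17.2%) were not in these 3 windows. The searched motifs do not overlap each other within these windows, and a match describes the letters only.

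The ligands Tgfb1, Tgfb2 and Tgfb3 did not pass the test. Their log2 means were -0.13 ± 0.83, -0.38 ± 1.64 and 0.22 ± 0.85 (SD, n = 8; adjusted p = 0.764, 0.626 and 0.584, limma). All 3 were at their lowest or next to lowest in tumor 6, at -2.07, -2.23 and -1.68. The log2 ratios of Tgfb2 in tumors 1 to 8 were -0.56, 0.88, 0.65, 0.71, -0.66, -2.23, -3.26 and 1.44, far lower in tumors 6 and 7 than in the other 6. Its first arrays of tumors 1 to 4 gave -0.92, 0.47, 1.02 and -0.15 and the swapped arrays -0.21, 1.29, 0.27 and 1.57. In tumors other than 6, Tgfb1 stayed between -0.19 and 0.66 and Tgfb3 between 0.06 and 1.11. Tgfb3 was above the pool in 7 of 8 tumors, and without tumors 6 and 7 its mean was 0.56 (adjusted p = 0.0314, limma). Leaving out tumor 6 alone also brought it past the threshold.

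The other binding proteins were not called. Ltbp2 averaged -0.20 ± 0.85 (SD, n = 8; adjusted p = 0.628, limma), with tumor 1 at 1.31 and tumor 6 at -1.69. Ltbp4 averaged 0.17 ± 0.30 (SD, n = 8; adjusted p = 0.336, limma), with first arrays at 0.46 on average and swapped arrays at -0.42. Of the receptors, Tgfbr1, the type I kinase that Tgfbr2 activates, averaged -0.16 ± 0.42 (SD, n = 8; adjusted p = 0.475, limma). Tgfbr3, betaglycan, which presents TGF-beta to the signalling receptors and also binds inhibin, averaged -0.31 ± 1.45 (SD, n = 8; adjusted p = 0.65, limma). Its log2 ratios in tumors 1 to 8 were -0.30, 0.52, 0.55, 0.48, 0.47, -2.32, -2.86 and 0.95, low in tumors 6 and 7 and within 1 of the pool elsewhere. On tumors 1 to 4 the first arrays gave -0.34, 0.39, 0.98 and 0.37 and the swapped arrays -0.25, 0.65, 0.12 and 0.60.

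Inhibin and activin subunits pair into inhibins (Inha with an Inhb chain) or activins (2 Inhb chains). None of the 4 tested subunits was called, with means from -0.12 (Inhbb) to 0.26 (Inha) and adjusted p from 0.169 (Inhbe) to 0.683 (limma). Inha ran from -1.5, -1.40 and -0.09 in tumors 1 to 3 through 0.74, 1.47, 1.25 and 1.25 in tumors 4 to 7 to 0.34 in tumor 8. Tumors 1 and 2 were more than 1 below the pool and tumors 5, 6 and 7 more than 1 above it, around a mean of 0.26 ± 1.17 (SD, n = 8). The first arrays of tumors 1 to 4 gave -1.77, -0.85, -1.29 and 1.51 and the swapped arrays of those labels -1.24, -1.94, 1.12 and -0.03, so the values of tumors 3 and 4 average arrays of opposite sign. A second, dimmer Inha probe gave -0.05, -0.38, 0.00, 0.42, 1.06, -0.62, -0.38 and 0.24 in the same order and was high in tumor 5 but not in tumors 6 and 7. Inhba, the activin A chain, was at 1.86 on the first array of tumor 3, 1.13 on that of tumor 6 and 1.11 on the swapped array labelled tumor 2, and between -0.68 and 0.23 on the other 9 arrays.

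Fst, follistatin, which binds and blocks activins, was high on the same pair of arrays, the first of tumor 3 and the swapped one labelled tumor 2. It was at 3.05 and 2.06 there and between -0.29 and 0.46 on the 9 other arrays measured. The mean of 0.33 ± 0.78 (SD, n = 7; adjusted p = 0.409, limma) was not called. These 2 arrays, which correlate with each other at r = 0.824 over all genes, were the highest 2 of 12 for 6 of 33 members measured on every array (Bmp2, Bmp2k, Bmp3, Ltbp1, Ltbp3 and Tgfbr1), beside 13.6% of all such genes. Bmp3, a BMP that does not activate the usual BMP Smads, was at 1.51 and 1.42 there and at 0.58 or less elsewhere. The median of 12 fibroblast and stroma markers was 3.04 and 2.49 on the same 2 arrays and -1.07 to 0.78 on the other 10. All 12 markers passed the brightness filter and none was called over the 8 tumors. Other marker lists were high on these 2 arrays too, with medians of 3.87 and 2.44 for skeletal muscle, 2.64 and 1.68 for myoepithelium and 1.98 and 1.64 for macrophages. The luminal list was at 0.72 and 0.29. The part of any of these in the member values was not tested.

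None of the 6 activin and ALK receptors was called, with means from -0.41 (Acvr2a) to 0.15 (Acvr1c) and adjusted p from 0.328 to 0.769 (limma). 4 of the 6 (Acvr1, Acvr2a, Acvr2b and Acvrl1) had tumors 6 and 7 as their lowest 2. Acvr2b, an activin type II receptor, gave log2 ratios of 0.13, 0.06, -0.01, 0.54, 0.42, -2.27, -2.86 and 1.12 in tumors 1 to 8. Acvrl1, the endothelial type I receptor ALK1, gave -0.09, 0.07, 0.07, 0.52, 0.36, -2.02, -1.97 and 0.97. In both genes tumors 6 and 7 lay far below every other tumor, and tumor 8 was highest. For tumors 1 to 4 the arrays ranged from -0.42 (swapped, label 2) to 0.74 (swapped, label 4) in Acvr2b and, on the same 2 arrays, from -0.30 to 0.55 in Acvrl1. Acvr1 (ALK2), a type I receptor for BMPs and activins, was at -1.70 in tumor 6 and between -0.01 and 1.02 elsewhere, and without tumors 6 and 7 it averaged 0.44 (adjusted p = 0.0413, limma).

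The probes behind the low Acvr2b and Acvrl1 values are shown because both receptors were below -1.5 in tumors 6 and 7. In the array's annotation the 60 bases of the Acvr2b probe span 1356 bases of mm7 (chr9:119108757-119110112) and those of the Acvrl1 probe span 293 (chr15:101122328-101122620), and exon positions were not used here.
Acvr2b probe: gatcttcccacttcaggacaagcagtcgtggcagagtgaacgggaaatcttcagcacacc
Acvrl1 probe: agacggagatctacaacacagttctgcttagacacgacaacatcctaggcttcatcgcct
No bases are in capitals because no motif was searched in them. Their G and C content was 53.3% and 48.3%.

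Values below -1.5 were concentrated in tumor 6, where 13 of 38 members measured (34.2%) fell beyond it, beside 14.7% of all genes. In tumor 7 the counts were 5 of 40 (12.5%), beside 8.46% of all genes, and in the remaining tumors 1 member in all. Tumors 6 and 7 were the lowest 2 tumors for 8 of 36 members measured in all 8 (Acvr1, Acvr2a, Acvr2b, Acvrl1, Bmp2k, Smad6, Tgfb2 and Tgfbr3), beside 17.6% of all such genes. Tumors 1 and 5 were the lowest 2 for another 8 (Bmp1, Bmp7, Bmpr2, Ltbp1, Smad4, Smad5, Tgfbr1 and Tgfbr2), beside 7.3% of all such genes. Both tumors 6 and 7 also had the widest spread over all genes, and the part of that spread in the member values was not tested.

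Other probes of a member did not always share its low values in tumors 6 and 7. Of 19 members with more than 1 usable probe placed on the same strand, 4 had probes whose means differed in sign (Acvr2a, Bmpr2, Smad3 and Smad5). The widest gap between probes of a gene was in tumor 6 for 8 of the 19 and in tumor 7 for 5. In tumor 6 the brightest Acvr2a probe gave -2.59 and the other 1.04, and the brightest Smad3 probe gave -2.12 and another -0.43. Probes of Bmp2k and Ltbp2 placed on the opposite strand, and 1 of Smad3 with no position, were not compared. That Smad3 probe gave 1.00 in tumor 6. For Bmpr1a and Smad4 it was the second probe that was low: Bmpr1a gave 0.70 and -1.86 in tumor 6, and Smad4 gave 0.10 and -4.18 in tumor 6 and -0.20 and -3.69 in tumor 7. A value in these tumors is therefore given as that of 1 probe.

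BMP ligands, which act in development and in mesenchymal and epithelial patterning, were not called in any of 7 tested genes, with means from -0.46 to 0.46. Bmp7 was the highest of them at 0.46 ± 0.77 (SD, n = 8; adjusted p = 0.223, limma). It was near or above 1 in tumors 2, 3, 4 and 8 (1.03, 1.01, 1.08 and 1.14), lower in tumors 6 and 7 (0.34 and 0.42) and below the pool in tumors 1 and 5 (-0.68 and -0.71). A second Bmp7 probe, printed as 10 spots, followed it in every tumor, at -0.46, 0.98, 1.02, 1.16, -0.47, 0.40, 0.73 and 1.36, with a spot-to-spot SD within an array of 0.02 to 0.22. The order of tumors in Bmp7 resembled that in Ltbp1, where the same pair, tumors 1 and 5, were the lowest. Bmp6 averaged -0.46 ± 0.86 (SD, n = 8; adjusted p = 0.265, limma) and was above the pool in tumors 6 and 7 (0.75 and 1.00) and at or below -0.61 in the other 6. Its first arrays of tumors 1 to 4 gave -1.09, -0.40, -1.36 and 0.54. The swapped arrays of those labels gave -0.80, -2.37, -0.28 and -1.76, so the value of tumor 4 averages arrays of opposite sign. Without tumors 6 and 7 Bmp6 averaged -0.90 (adjusted p = 0.00258, limma), a mean that uses these averaged values. A dimmer Bmp6 probe gave -0.58 ± 0.41 (SD, n = 8; adjusted p = 0.0281 over all probes, limma), with tumors 6 and 7 lowest in place of highest.

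Bmp2, Bmp4 and Tgfb1 were each printed as 10 spots, with a median spot-to-spot SD of 0.09, 0.07 and 0.04 within an array. Repeated spots share the probe, the labelling and the hybridisation, so this SD covers spot-to-spot error only. Between tumors the 3 genes had SDs of 0.46, 0.34 and 0.83. Bmp3, Bmp4, Bmp5 and Bmp8a had means between -0.14 and 0.06 and adjusted p from 0.374 to 0.919 (limma). Of the BMP receptors, Bmpr1a averaged 0.08 ± 0.44 and Bmpr2 -0.16 ± 0.39 (SD, n = 8), and Bmpr1b averaged -0.41 ± 0.55 (SD, n = 7; adjusted p = 0.175, limma). These means cover a split by dye orientation. The first arrays of tumors 1 to 4 averaged -0.50, -0.65 and -0.68 in that order, and the swapped arrays 0.96, 0.35 and 0.02. Inhbb (-0.64 and 0.53) and Acvr2a (-0.43 and 0.70) split the same way. Ltbp4 (0.74 and -0.42) and Acvr1 (0.78 and -0.09) split the other way.

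The signal-carrying Smads were not called over the 8 tumors. Smad2 came nearest, at 0.33 ± 0.26 (SD, n = 7; adjusted p = 0.0822, limma), while Smad1, Smad3, Smad4 and Smad5 had means between -0.18 and -0.03 and adjusted p from 0.498 to 0.85 (limma). Smad2 split by dye orientation: tumors 1 to 4 gave -0.44, 0.12, 0.05 and -0.25 with the tumor in Cy5 and 0.89, 1.04, 0.93 and 0.92 with it in Cy3. When dye was modelled its mean was 0.58 (adjusted p = 0.0332, limma), while the first arrays alone averaged 0.03. Smad4, the common partner, gave -0.81 to 0.10 on the 8 first arrays and 0.38 to 0.79 on the swapped arrays. The dimmest of 3 Smad5 probes was below the pool in all 8 tumors, at -1.06 ± 0.56 (SD, n = 8; adjusted p = 0.00716 over all probes, limma), while the brightest Smad5 probe gave -0.14 ± 0.36.

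The inhibitory Smads, which are induced by the pathway and feed back on its receptors, differed from each other in pattern. Smad7 gave -0.10, 0.20, -0.49 and -0.27 on first arrays 1 to 4 and 2.02, 1.63, 1.96 and 2.01 on the swapped arrays of those numbers. First arrays 5 to 8 gave -0.50, 0.63, -0.48 and 0.12, so every swapped array was above every first array. The mean over 8 tumors was 0.41 ± 0.61 (SD, n = 8; adjusted p = 0.185, limma). With the dye term it was 0.93 (adjusted p = 0.00408, limma), and in the first arrays alone -0.11. Smad4 and Smad7 were the 2 of 33 members measured on every array whose 4 swapped arrays all lay above the 8 first arrays, beside 5.78% of all such genes, and no member had all 4 below, beside 3.6%. The Smad7 probe has a G and C content of 25%. Over the 637 genes with probes of at most 30% G and C, the median log2 ratio was -0.50 to 0.25 on first arrays and 0.09 to 0.63 on swapped arrays, and its part in the Smad7 value was not tested.

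Smad6, which mainly blocks BMP signals, was above the pool in 7 of 8 tumors, with log2 ratios of 0.60, 0.26, 0.34, 0.91, 0.31, -1.71, 0.13 and 1.42. Tumor 6 alone was below the pool. The mean was 0.28 ± 0.91 (SD, n = 8; adjusted p = 0.515, limma), and without tumor 6 it was 0.57 (adjusted p = 0.0369, limma).

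**Figure D3:**
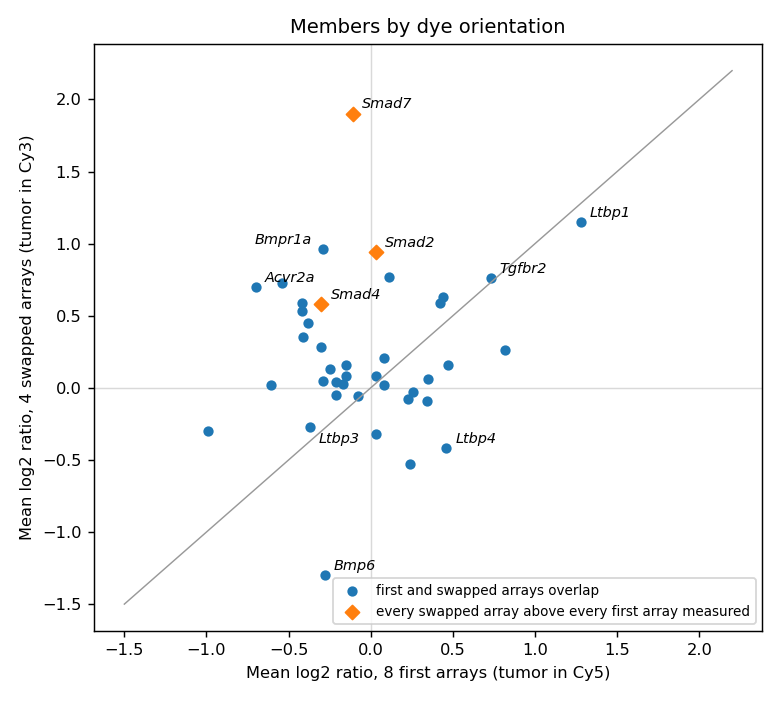
Mean log2 ratio of tumor over pool on the 4 swapped arrays (vertical) against that on the 8 first arrays (horizontal) for the 40 members; the grey line marks equal values. Smad7, Smad2 and Smad4 (diamonds) had every swapped array above every first array measured, Smad2 on 11 arrays, while Tgfbr2, Ltbp1 and Ltbp3 lie near the line.

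The name rule also took in 2 genes that carry the Bmp name but are not BMP ligands. Bmp1 is a protease that trims procollagen and other matrix proteins and can release TGF-beta from its binding proteins. It averaged 0.75 ± 0.95 (SD, n = 8; adjusted p = 0.111, limma) with 1.86, 1.22, 1.76 and 1.40 in tumors 2, 3, 6 and 7 and -0.65 and -0.32 in tumors 1 and 5. The value of tumor 2 came from its swapped array alone, because the spot on its first array was an outlier. That of tumor 3 averages 2.61 on its first array and -0.16 on its swapped array. The swapped array labelled tumor 2 and the first array of tumor 3 correlate with each other at r = 0.824 over all genes. A second Bmp1 probe gave 0.37 ± 0.28 (SD, n = 8; adjusted p = 0.0538 over all probes, limma) with tumor 5 lowest. Bmp2k, a kinase named for its induction by BMP2, averaged -0.94 ± 0.95 (SD, n = 8; adjusted p = 0.0565, limma) and was below the pool in 7 of 8 tumors, at -2.02 and -2.71 in tumors 6 and 7. The other 2 Bmp2k probes on the same strand averaged -0.24 and -0.11.

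**Figure D4:**
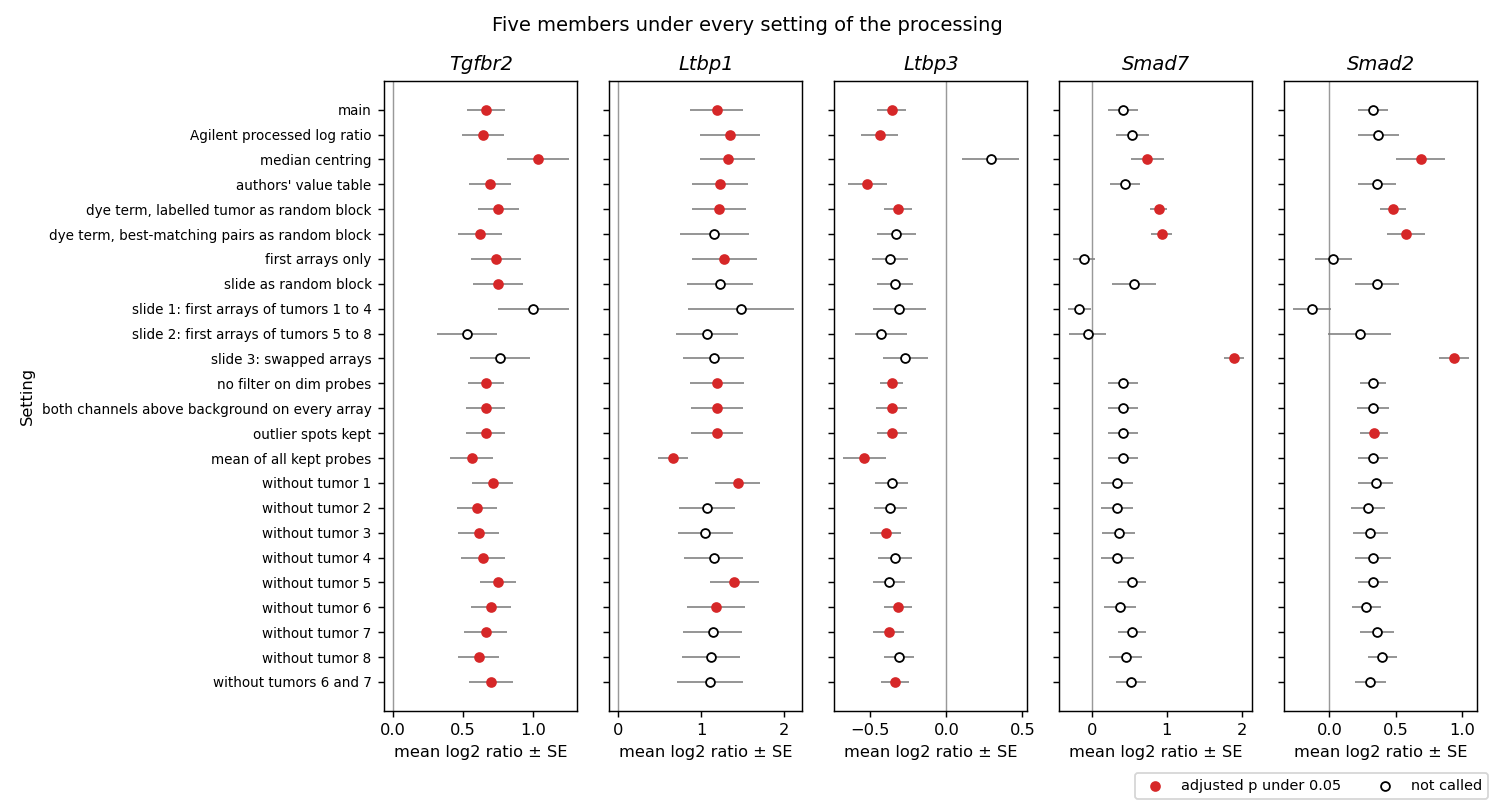
Mean log2 ratio (± SE) of Tgfbr2, Ltbp1, Ltbp3, Smad7 and Smad2 under the reported fit (top row) and 23 other settings; filled points had an adjusted p under 0.05 (limma). Tgfbr2 and Ltbp1 lie above the pool in every setting shown, Ltbp3 crosses it with median centring, and Smad7 and Smad2 are highest on the swapped arrays.

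The 7 members that were too dim to test had tumor RNA above background on at most 3 of 12 arrays. Bmp8b and Grem1 were above background on no array in either channel, and Bmp10 on 1 array in the pool channel. Bmp15 was above background on 2 arrays in the tumor channel, Inhbc and Nog on 3 in each channel, and Smad9 on 3 in the tumor and 2 in the pool channel. Noggin and gremlin are secreted BMP antagonists, and for them the arrays give no usable ratio.

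Genes around the members were listed by their part in the pathway, without the members themselves. Of 12 other ligands of the superfamily (Gdf, Nodal, Lefty and related genes), none was called (median log2 ratio 0.21), beside the 17.2% of all genes. Of 19 extracellular antagonists and co-receptors, 2 rose and 2 fell (median 0.12), beside 6.58% of all genes called higher and 10.6% called lower. Bambi, a pseudoreceptor that blocks type I receptors, was higher at 0.61 ± 0.43 (SD, n = 8; adjusted p = 0.023, and 0.0365 with the dye term, limma). Chrdl2, a chordin-like BMP antagonist, averaged 1.76 ± 0.99, Rgma, a BMP co-receptor, -0.55 ± 0.31 and Crim1, which binds BMPs, -0.98 ± 0.94 (SD, n = 8; adjusted p = 0.00634, 0.014 and 0.0479, limma), and these 3 missed the threshold once dye was modelled (adjusted p = 0.0765, 0.0501 and 0.236, limma).

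Among 17 genes that release or activate latent TGF-beta, 2 rose and 3 fell (median -0.04), beside 6.58% and 10.6% of all genes. Thbs2, a thrombospondin, was above the pool in all 8 tumors, from 0.91 to 1.78, at 1.31 ± 0.29 (SD, n = 8; adjusted p = 0.000346, limma). Thbs1, the thrombospondin known to activate latent TGF-beta, was below it in all 8 by its brightest probe, from -4.14 to -0.60, at -1.94 ± 1.08 (SD, n = 8; adjusted p = 0.00615, limma). The 2 other Thbs1 probes averaged -0.30 and -0.04 and were above the pool in tumors 4, 5 and 8. Itgb8, the beta chain of an integrin that activates latent TGF-beta, averaged -1.14 ± 0.53 (SD, n = 8; adjusted p = 0.0039, limma), with its 3 other probes between -0.36 and 0.06. Thbs1, Thbs2 and Itgb8 passed with the dye term as well. Pcsk6, a proprotein convertase, was higher (0.88) and Plau, urokinase, lower (-0.93) in the 8-tumor fit, but not with the dye term (adjusted p = 0.0849 and 0.252, limma).

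Of 29 intracellular regulators and partners of Smads, 1 rose and 3 fell (median -0.04), beside 6.58% and 10.6% of all genes. Wwp1, a ubiquitin ligase, fell by its brightest probe and passed with the dye term, at -0.80 ± 0.49 (SD, n = 8; adjusted p = 0.012, limma). Trim33 (-0.55) and Rnf11 (-0.46) were lower in the 8-tumor fit, but not with the dye term (adjusted p = 0.268 and 0.195, limma). Tgfbrap1, which associates with TGF-beta receptors, was higher by its brightest probe at 0.52 ± 0.24 and lower by its other at -0.55 ± 0.41 (SD, n = 8; adjusted p = 0.0116 and 0.0339 over all probes, limma), so its direction is not settled. Of 12 genes of the TAK1 and p38 branch, 1 fell and none rose (median -0.16), beside 10.6% and 6.58% of all genes. The 1 that fell was Tab3, at -0.53 (adjusted p = 0.227 with the dye term, limma).

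Genes known to be induced by the pathway were listed as well. Of 22 TGF-beta targets, 3 rose and none fell (median 0.11), beside 6.58% of all genes called higher and 10.6% called lower. Snai1, a transcription factor of epithelial-mesenchymal transition, was above the pool in all 8 tumors, from 0.19 to 2.23, at 1.20 ± 0.68 (SD, n = 8; adjusted p = 0.00752, and 0.0129 with the dye term, limma). Tumors 1 and 5 were lowest in Snai1 (0.33 and 0.19), as they were in Ltbp1 and Tgfbr2. Tgfbi, a matrix protein named for its induction by TGF-beta, averaged 0.83 ± 0.53, and Tgm2, a transglutaminase, 0.73 ± 0.24 by its brightest probe (SD, n = 8; adjusted p = 0.0135 and 0.00283, limma), while 2 other Tgm2 probes gave 0.11 and 0.21 with tumors 6 and 7 below -1.5. Tgfbi and Tgm2 missed the threshold with the dye term (adjusted p = 0.0553 and 0.0868, limma). The median of the 22 targets was 1.35 on the first array of tumor 3 and 1.14 on the swapped array labelled tumor 2, and -0.20 to 0.51 on the other 10. Those 2 arrays were also high in fibroblast, skeletal muscle, myoepithelial and macrophage markers. The list holds collagen and other stromal genes.

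Of 13 BMP targets, 3 rose and 1 fell (median 0.22), beside 6.58% of all genes called higher and 10.6% called lower. Msx1 and Msx2, homeobox genes induced by BMPs, went in opposite directions, at 1.21 ± 0.55 (SD, n = 7) and -1.26 ± 0.41 (SD, n = 8; adjusted p = 0.00546 and 0.00118, limma). Msx2 was below the pool in all 8 tumors, from -1.83 to -0.55. Neither passed with the dye term (adjusted p = 0.259 and 0.113, limma). The other 2 that rose were Bambi, given above, and Tbx2 at 0.61 ± 0.51 (SD, n = 8; adjusted p = 0.0374, and 0.23 with the dye term, limma).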

How the data were processed

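Deposited scanner files of 12 Agilent 2-colour arrays gave red and green mean and background intensity per spot; per the file headers they came from Feature Extraction 9.5.3.1. Per the labels' protocols, 500 ng of total RNA was amplified in 1 round. Intensities were corrected with normexp (offset 50) and loess in limma 3.58.1 (R 4.3.3), outlier spots (0.47% to 13.7% of an array) left out, and log2 ratios turned to tumor over pool. Spots of a probe, then both arrays of a labelled tumor, were averaged. A probe was kept when either channel was well above background in at least 4 tumors. The brightest kept probe stood for a gene. Means were tested against 0 with lmFit and eBayes over 20395 genes; a call is an adjusted p under 0.05. The deposited log10 ratio and the authors' deposited value table (log2; already tumor over pool, its normalization and centring unknown here) were alternatives. The slopes of the value table on the scanner ratio (red over green) were 0.758 to 0.797 on first and -0.748 to -0.715 on swapped arrays. The number of arrays limits the precision. Members and lists were chosen with earlier results of these data known; called members are given by tumor, the 5 of widest SD too, and lists by their called genes. The script was tested on simulated data.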

Additional observations from a re-analysis of the deposited data

Results flagged for a closer look

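7 of the 40 members (17.5%) had 1 tumor far from the other 7, and in each it was tumor 6, below the others; chance alone flags about 1 in 20 groups. Over all genes tested by the same rule, 16.1% had such a tumor and 7.62% had tumor 6 low. The log2 ratio of tumor over pool in tumor 6 was -1.70 for Acvr1 (other tumors -0.01 to 1.02), -2.59 for Acvr2a (-0.85 to 0.46), -1.82 for Smad1 (-0.51 to 0.58) and -2.12 for Smad3 (-0.36 to 0.75). It was -1.71 for Smad6 (0.13 to 1.42), -2.07 for Tgfb1 (-0.19 to 0.66) and -1.68 for Tgfb3 (0.06 to 1.11). In the same tumor the second probe of Acvr2a was at 1.04 and that of Smad1 at -3.18. The second Smad3 probe, which has no position, was at 1.00 there, and the dimmest at -0.43.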

How the results depend on the processing

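Over the 40 members and 23 other settings, 25 results lost the call with the same sign and 23 gained it. In 1 result a called member both changed sign and lost the call: Ltbp3, at 0.29 with median centring (adjusted p = 0.302, limma). The other 864 kept their side of the threshold, but 100 values not called in the reported fit changed sign. The 3498 genes called over all genes became 1635 with dye modelled and best-matching pairs as block, 1927 with slide as a random block, and 926, 8 and 1638 within slides 1, 2 and 3. Leaving out each tumor in turn gave 1961 to 4539 genes, fewest without tumor 4 and most without tumor 6. The 2 members called higher became 5 with median centring, 4 with a dye term and the labelled tumor as block, 4 without tumors 6 and 7 (added after seeing the data), 1 with slide as a block, and 0 within slide 1 and within slide 2. Leaving out each tumor gave 1 to 4, with 1 without tumor 2, 3, 4, 7 or 8 and 4 without tumor 6. The 1 member called lower became 2 with Agilent's processed ratio, the authors' value table, a dye term with the labelled tumor as block, or the mean of all probes, and 3 without tumors 6 and 7. It became 0 with median centring, the best-matching pairs, slide as a block, and within each of slides 1, 2 and 3. Leaving out each tumor gave 0 to 1. Median centring split the calls over all genes into 2376 higher and 966 lower, against 1342 and 2156. Within a slide there are 4 arrays, so fewer samples were tested; otherwise the cause was not tested. No paired analysis was possible because the tumors were all set against 1 pool. Dim probes limit 7 members, which have no usable ratio.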

Other observations

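The other cell marker lists gave these counts in the 8-tumor fit, beside 17.2% of all genes called. Of 9 myoepithelial markers, 3 rose (Krt5, 1.29; Krt14, 0.83; Oxtr, 0.89) and none fell. Of 10 endothelial markers, 1 fell (Flt1, -0.60), and of 9 adipocyte and 12 fibroblast markers none was called. Of 10 macrophage markers 1 rose (C1qc, 0.50), of 7 B and plasma cell markers 2 rose (Jchain, 2.87; Mzb1, 1.43) and of 7 skeletal muscle markers 2 rose (Mylpf, 0.99; Tnnc2, 0.89). Of 10 T cell markers 1 rose (Lck, 1.51) and 1 fell (Cd3e, -1.0, measured in 4 tumors). The Cd3e spot was left out as an outlier on 7 arrays, and with the dye term Cd3e was at -0.11 (adjusted p = 0.813, limma). With dye modelled, Jchain, Mzb1 and Lck were still called, and none of the myoepithelial (adjusted p = 0.072, 0.25 and 0.107 in the order above, limma), endothelial, macrophage and skeletal muscle markers was. The median of the B and plasma cell list was 3.45 and of the T cell list 2.88 on the first array of tumor 7, and 1.04 and 0.59 on that of tumor 6.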
